A study of Mus musculus with 11 samples.

Results

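The 10 genes described here code for the proteins that shape the mitochondrial network and that copy and transcribe mitochondrial DNA (mtDNA): the fusion GTPases Mfn1, Mfn2 and Opa1, the fission factors Dnm1l and Fis1, the mtDNA transcription and packaging factors Tfam, Tfb2m and Polrmt, the mtDNA polymerase Polg, and the nuclear transcription factor Nrf1. They were chosen by gene symbol, and all 10 were found among the 29955 symbols of the expression tables. RNA-seq had been made from 11 libraries of im-scWAT cells, a line of preadipocytes from mouse inguinal subcutaneous white fat that was immortalized with the large T antigen and that becomes beige when differentiated with rosiglitazone (ROS), a PPARγ ligand. Of these, 6 libraries came from cells with no transduction, at day 0, day 4 and day 8 of differentiation with or without 0.5 µM ROS, 1 library for each combination. The other 5 came from day 8 cells differentiated with ROS, in which a retroviral short hairpin against mouse Jmjd1a (Kdm3a, a histone H3 lysine demethylase) was combined with retroviral human JMJD1A: wild type (WT A and WT B, 2 libraries), S265A (a serine that can be phosphorylated replaced by alanine), S265D (the same serine replaced by aspartate, which mimics the phosphorylated form) or S265D-H1120Y (with a further change in the catalytic domain). Day 0 marks the start of induction. In the paper's protocol ROS was added only from then on. At day 0, with and without ROS therefore names only the labels of 2 libraries not yet treated differently. Cells of the later libraries, with or without ROS, were induced with indomethacin, dexamethasone, isobutylmethylxanthine, insulin and triiodothyronine and were then kept in insulin and triiodothyronine, to both of which media ROS was added or not. The labels do not say whether the libraries of one condition came from separate cultures, so p-values measure only the spread between these libraries, which may be technical.

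Mitochondria fuse and divide continuously. Mfn1 and Mfn2 join outer membranes and Opa1 joins inner membranes and shapes cristae, while the dynamin Dnm1l is recruited from the cytosol to divide the organelle and Fis1 sits in the outer membrane at such sites. The mitochondrial genome is packaged by Tfam, which together with Tfb2m places the RNA polymerase Polrmt at its promoters, and it is copied by the polymerase whose catalytic subunit is Polg. Nrf1 is a nuclear factor known for its binding at promoters of nuclear genes with mitochondrial products, among them several of these genes, and thermogenic adipocytes are known for their high mitochondrial content.

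RefSeq promoter windows (build GRCm38.p6, 250 bases before to 50 bases after each start) were available for all 10 genes, and they are shown here because Opa1, Tfam and Tfb2m were higher together at day 4. Letters known for NRF-1, the product of Nrf1, were searched as GCNTGCGC on both strands, and letters known for the ETS factor GABPA as CCGGAAG on both strands, without any overlap between the 2 in these genes. The first were found in windows of 4 of the 10 genes (Mfn2, Opa1, Polrmt and Tfb2m), against 9.95% of all 32851 windows and 11.2% of 27025 genes. The second were found in 6 of the 10 (Dnm1l, Fis1, Mfn1, Polg, Polrmt and Tfam), against 8.86% of windows and 9.93% of genes. No window of Nrf1 held either. Neither set of letters was common to Opa1, Tfam and Tfb2m. The stretches of the genes that passed a day test, described below, are given 5′ to 3′ on the strand of the gene, with the matching letters in capitals. Polrmt holds a further NRF-1 match 133 bases and GABPA letters 43 bases before its start, which are not shown. In Opa1 (chr16:29579265-29579294, plus strand) and Polrmt (chr10:79746564-79746593, minus strand) 2 overlapping NRF-1 matches run together, in Tfb2m (chr1:179546245-179546274, minus strand) the match lies after the start, and in Mfn2 (chr4:147905095-147905124, minus strand) it begins 204 bases before it. The GABPA letters begin 47 bases before the start in Tfam (chr10:71238074-71238103, minus strand) and 38 bases before it in Polg (chr7:79466294-79466323, minus strand).
Opa1: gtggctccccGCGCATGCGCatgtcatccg
Polrmt: caggcggcGCGTGCGCGTGCGCactgcggg
Tfb2m: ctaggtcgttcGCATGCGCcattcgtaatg
Mfn2: caacaaaaaagGCGCACGCaaacctctaat
Tfam: tcctgccgcggaCCGGAAGtccgggcttcc
Polg: ggaggacctcacCCGGAAGtccctctgcac
A match is a description of the letters only, and binding was not measured. The letters were chosen after the windows were seen, so the counts beside all genes are no test of an excess.

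The depth was 3.10 to 5.29 Gb of mapped bases per library (median 4.64 Gb). Expression is given as FPKM, the coverage of a transcript per kb of exon and per unit of sequencing depth, which corrects for length and depth, so levels of different genes can be set side by side. Adipocyte markers summed to 282 and 285 FPKM at day 0 and to 9703 to 34641 FPKM afterwards, so adipocyte genes were on in every later library, although 1 of the 8, Lep, stayed under 1 FPKM. In the day 8 libraries without transduction the beige markers summed to 265.3 FPKM with ROS and 53.1 FPKM without. Of the macrophage markers Emr1 and Ptprc were at 0 everywhere and the list summed to 0.541 to 21.7 FPKM, nearly all of it Cd68. The skeletal muscle regulators Myod1 and Myog were at 0 everywhere. Their list summed to 0.224 to 19.3 FPKM, nearly all of it the muscle actin Acta1, and was highest in WT B. The endothelial list reached at most 4.00 FPKM. Proliferation genes summed to 964 and 1022 FPKM at day 0, to 739 to 881 FPKM at day 4 and day 8, and to 351 to 478 FPKM in the transduced libraries. The targeted gene, Kdm3a, was at 13.0 to 28.5 FPKM in the transduced libraries and at 21.1 FPKM in the day 8 library with ROS and no transduction, so the tables show no clear reduction (whether any came from the human transgene was not tested). The paper, with immunoblot and qPCR, reports an efficient depletion of the endogenous JMJD1A by the hairpin. It also reports human JMJD1A at a level similar to that of the native mouse protein.

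At day 0 the 10 genes had a clear order of level. Fis1 was highest with a mean of 102 FPKM, followed by Mfn2 with 32.2 FPKM, Mfn1 with 15.5, Dnm1l with 14.3, Polg with 11.5, Opa1 with 10.8, Nrf1 with 9.89, Tfam with 9.04, Polrmt with 8.11 and Tfb2m with 5.59 FPKM. Fis1, Mfn2 and Tfb2m were separated from their neighbours by more than the difference between the 2 day 0 libraries. Dnm1l differed 1.49-fold between these libraries, a range that covered Mfn1 and reached down to Polg, and the ranges of Opa1, Nrf1 and Tfam overlapped each with the next. Over the 11 libraries, 8 of the 10 genes differed at least 2-fold between their highest and lowest library, Opa1 the most (3.56-fold) and Mfn1 the least (1.51-fold). The share of all genes with such a range was not counted, so it is not known whether this is unusual.

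To see whether these genes changed during differentiation, the 2 libraries of each day were compared, with the ROS difference counted as spread. Between day 0 and day 8 the genes for outer and inner membrane fusion, Mfn2 and Opa1, and the mtDNA genes Tfam, Polg and Polrmt rose by 1.46-fold to 1.83-fold, 5 of the 10, and none fell in limma, against 23.6% of the 16400 genes tested being called higher and 22% lower. Between day 0 and day 4 Opa1, Tfam and Tfb2m rose, 3 of the 10, against 19.8% of all genes called higher and 16.7% lower. Differentiation changed a large part of the transcriptome, and the shares of the members are to be read against that background. The means of Mfn1 were 1.14-fold and 0.913-fold and those of Nrf1 0.994-fold and 1.02-fold of day 0 at day 4 and day 8, and the fission genes Dnm1l and Fis1 did not pass the test at either. These are bulk samples in which adipocytes form over the same days, so a change in the share of cells and a change per cell cannot be told apart.

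**Figure D1:**
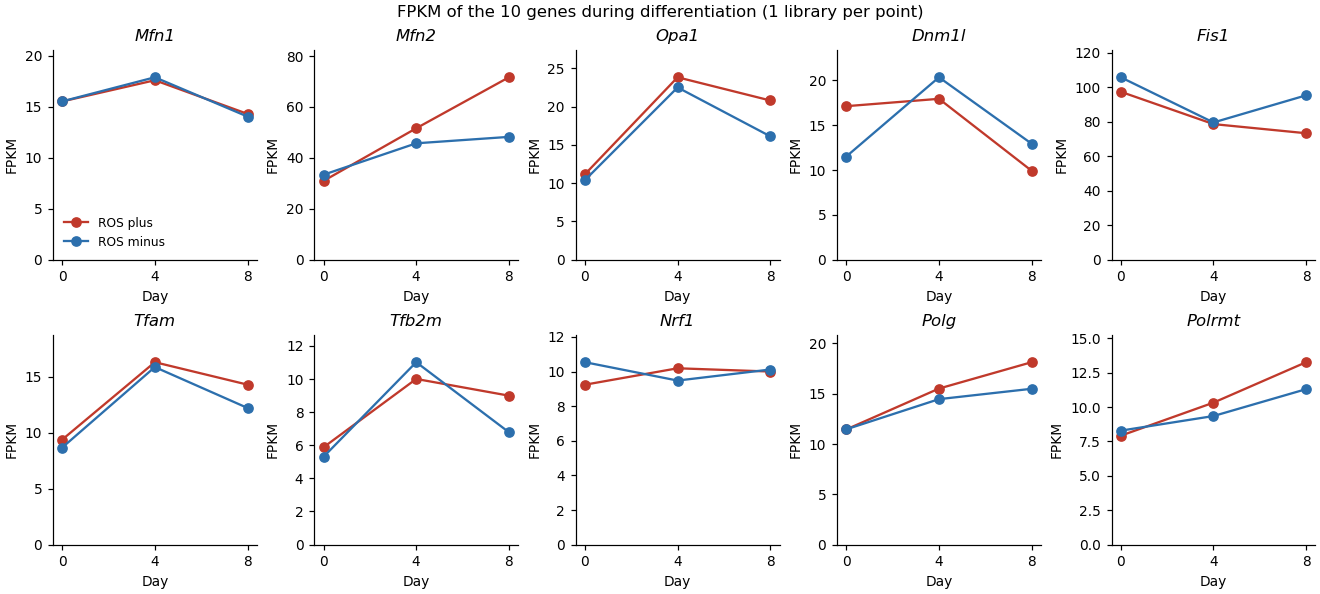
FPKM (y axis, linear from 0, scaled for each gene) against day of differentiation (x axis) for the 10 genes, with 1 library per point, red with ROS and blue without. Mfn2, Polg and Polrmt were highest at day 8 in both conditions, Opa1, Tfam and Tfb2m at day 4, and Mfn1 and Nrf1 moved little.

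Among the fusion genes, Mfn2 (build mm9, chr4:147247704-147278928, minus strand) had 30.9 and 33.4 FPKM at day 0 with and without ROS, 51.6 and 45.7 FPKM at day 4, and 71.7 and 48.2 FPKM at day 8. The days 0 and 8 did not overlap, and the day 8 library with ROS stood highest of all 11. The fold of day 8 over day 0 was 1.83 (log2 difference 0.87 ± 0.23 SE, limma adjusted p = 0.0308), and at day 4 the log2 difference of 0.59 ± 0.23 did not pass (adjusted p = 0.0974). Its paralogue Mfn1 (chr3:32428404-32478147, plus strand), which tethers outer membranes in the same way, had 15.5 FPKM in both libraries of day 0, 17.6 and 17.9 FPKM at day 4 and 14.3 and 14.0 FPKM at day 8. Although the groups did not overlap, the difference of day 8 from day 0 was only -0.13 ± 0.13 on the log2 scale (adjusted p = 0.445). Accordingly, the ratio of Mfn2 to Mfn1 was 1.99 and 2.15 at day 0, 2.93 and 2.56 at day 4, and 5.01 with ROS and 3.44 without at day 8.

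Opa1 (chr16:29579420-29654688, plus strand), the inner membrane GTPase, had 11.2 and 10.4 FPKM at day 0 with and without ROS, 23.8 and 22.5 FPKM at day 4, and 20.8 and 16.1 FPKM at day 8. All 4 later libraries lay above both of day 0. It was 2.14-fold higher at day 4 (log2 difference 1.10 ± 0.18 SE, adjusted p = 0.010) and 1.69-fold higher at day 8 (0.76 ± 0.18, adjusted p = 0.0222). Its 3 annotated transcripts gave nearly the same ratio of day 8 over day 0, from 1.71 to 1.76.

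Neither fission gene passed the test at day 4 or day 8. Dnm1l (chr16:16312326-16359123, minus strand), the dynamin that constricts the organelle, had 17.1 and 11.5 FPKM at day 0 with and without ROS, 17.9 and 20.3 FPKM at day 4, and 9.92 and 12.9 FPKM at day 8. The 2 libraries of day 0 enclosed the day 8 library without ROS, and the log2 difference of day 8 was -0.31 ± 0.26 (adjusted p = 0.357). The ratio of Opa1 to Dnm1l was 0.652 and 0.903 at day 0, 1.33 and 1.11 at day 4, and 2.10 with ROS and 1.25 without at day 8, so Opa1 was below Dnm1l only in the day 0 libraries of the 11. Fis1 (chr5:137437947-137442104, plus strand), the outer membrane adaptor, had 97.4 and 106 FPKM at day 0, 78.6 and 79.6 FPKM at day 4, and 73.3 and 95.3 FPKM at day 8. Both later days lay below day 0, yet the log2 differences of -0.36 ± 0.18 at day 4 and -0.28 ± 0.18 at day 8 did not pass (adjusted p = 0.174 and 0.250).

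**Figure D2:**
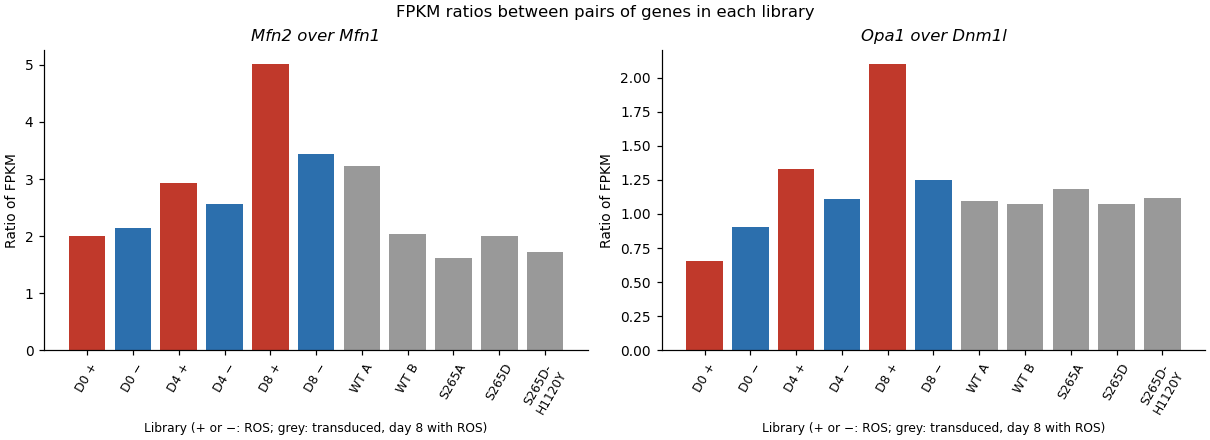
Ratio of FPKM (y axis, from 0) between Mfn2 and Mfn1 and between Opa1 and Dnm1l in each of the 11 libraries (x axis), red with ROS, blue without, grey transduced. The Mfn2 over Mfn1 ratio reached 5.01 in the day 8 library with ROS against 1.99 and 2.15 at day 0, and Opa1 over Dnm1l 2.10 against 0.652 and 0.903.

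Of the genes that act on mtDNA, Tfam (chr10:70688225-70700792, minus strand), the protein that packages it into nucleoids, had 9.39 and 8.68 FPKM at day 0 with and without ROS, 16.3 and 15.9 FPKM at day 4, and 14.3 and 12.2 FPKM at day 8. The 3 days did not overlap, with day 4 highest. It rose 1.77-fold by day 4 (log2 difference 0.83 ± 0.15, adjusted p = 0.0146) and was 1.46-fold higher at day 8 (0.55 ± 0.15, adjusted p = 0.0372). Tfb2m (chr1:181458187-181476398, minus strand), which melts the promoter DNA for the polymerase, had 5.88 and 5.30 FPKM at day 0, 10.0 and 11.02 FPKM at day 4, and 8.99 and 6.79 FPKM at day 8. It had the same order of days, 1.87-fold higher at day 4 (0.90 ± 0.19, adjusted p = 0.0209), while the day 8 difference of 0.48 ± 0.19 did not pass (adjusted p = 0.0939).

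The 2 polymerases instead had their highest FPKM of the time course at day 8. Polrmt (chr10:79198870-79209326, minus strand), the mitochondrial RNA polymerase, had 7.92 and 8.29 FPKM at day 0 with and without ROS, 10.3 and 9.35 FPKM at day 4, and 13.3 and 11.3 FPKM at day 8. The days did not overlap, and day 8 was 1.51-fold above day 0 (log2 difference 0.59 ± 0.16, adjusted p = 0.0318), whereas day 4 did not pass (0.28 ± 0.16, adjusted p = 0.223). Polg (chr7:86594269-86611159, minus strand) had 11.5 FPKM in both day 0 libraries, 15.5 and 14.5 FPKM at day 4, and 18.1 and 15.5 FPKM at day 8. It was 1.46-fold higher at day 8 (0.55 ± 0.15, adjusted p = 0.0365), and the day 4 difference of 0.38 ± 0.15 did not pass (adjusted p = 0.105). With the transcript of highest mean, a fragment of 255 bases, in place of the representative one, Polg did not pass at day 8 (0.17 ± 0.18, adjusted p = 0.464) and was no longer above day 4. The ratio of Polg to Polrmt stayed between 1.37 and 1.55 in these 6 libraries. Another gene lies on the opposite strand of part of the Polg locus, and the antisense row of Polg held up to 5.50% of its sense FPKM, against at most 0.678% for the other 9 genes.

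Nrf1 (chr6:30026321-30080115, plus strand), the regulator, had 9.24 and 10.5 FPKM at day 0 with and without ROS, 10.2 and 9.48 FPKM at day 4, and 10.0 and 10.1 FPKM at day 8. The 3 days overlapped, and the log2 differences were -0.01 ± 0.15 at day 4 (adjusted p = 0.983) and 0.03 ± 0.15 at day 8 (adjusted p = 0.892).

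**Figure D3:**
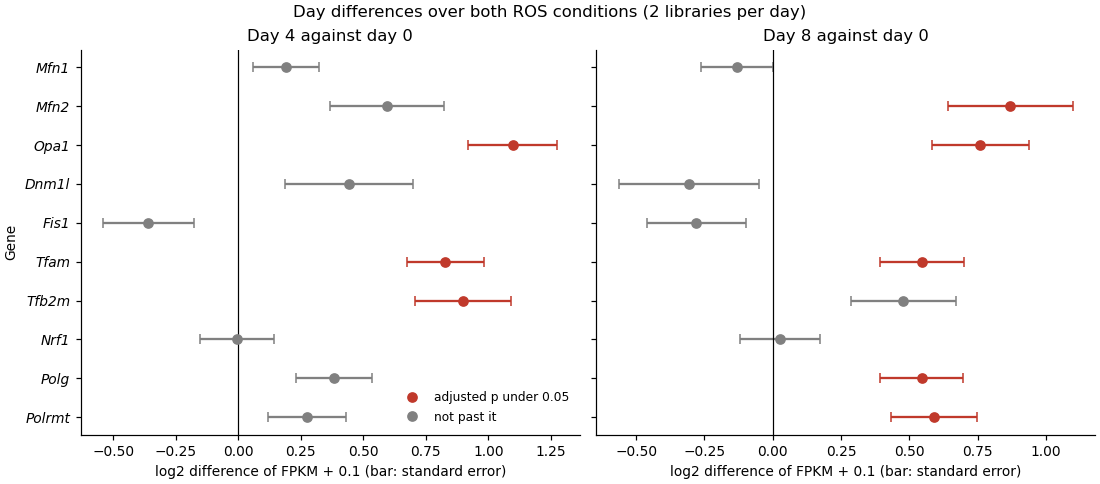
Log2 difference of FPKM + 0.1 from day 0 (x axis) for each gene (y axis) at day 4 and day 8, 2 libraries per day, with bars of 1 standard error and red points past an adjusted p of 0.05. Opa1, Tfam and Tfb2m are red at day 4, and Mfn2, Opa1, Tfam, Polg and Polrmt at day 8, all to the right of 0.

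Between day 4 and day 8 none of the 10 passed in limma, against 0.11% of all genes, and only Dnm1l had an unadjusted p under 0.05 (0.0308, log2 difference -0.75 ± 0.26). The calls rested on few libraries, since in limma 0 of the 10 passed at day 8 with either day 0 library left out, and 0 of the 10 at day 4 with any 1 of its 4 libraries left out. With libraries rescaled by median-of-ratios only Opa1 passed at day 8 of the 5 (adjusted p of the others 0.0504 to 0.0614), without the day 8 library with ROS only Mfn2 and Opa1 did, the same was true with ROS as an added term (Tfam, Polg and Polrmt at adjusted p of 0.0557, 0.0580 and 0.0522), and without a filter on low values none of the 5 did, although every direction was kept for these 5.

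The wider machinery, in gene lists that leave out the 10, was also mostly higher after induction. Of 28 tested fusion, fission and cristae partners, 18 rose and 3 fell by day 8, beside 23.6% and 22% of all genes (median log2 difference 0.66, against -0.03 over all genes). Mtfp1, a promoter of inner membrane fission, had 2.35 and 2.86 FPKM at day 0 and 18.2 and 13.0 FPKM at day 8 with and without ROS (5.75-fold, adjusted p = 0.00215), so a fission gene is among those with the largest change. Fam73b (mitoguardin 2), which favours fusion, rose 5.58-fold (adjusted p = 0.00165). Park2, the ubiquitin ligase parkin, rose 5.12-fold from 0.0268 and 0.0266 FPKM to 0.535 and 0.563 FPKM (adjusted p = 0.00392), but with the transcript of highest mean in place of the representative one its log2 difference was -2.02.

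Of 26 tested genes for mtDNA replication, nucleoids and nucleotide supply, 12 rose and 2 fell by day 8, beside the same 23.6% and 22% of all genes (median 0.47). Slc25a33, a pyrimidine nucleotide carrier of the inner membrane, rose most, 8.19-fold, from 4.68 and 5.04 FPKM to 64.1 FPKM with ROS and 25.6 FPKM without (adjusted p = 0.00620), followed by the nuclease Endog (4.11-fold, adjusted p = 0.00309) and the succinyl-CoA ligase subunit Suclg1 (3.65-fold, adjusted p = 0.00434). Of 24 tested genes for mtDNA transcription and RNA handling, 11 rose and none fell in limma by day 8 (median 0.59), and 16 of the 24 rose by day 4, beside 19.8% of all genes. Hsd17b10, a subunit of mitochondrial RNase P that also degrades isoleucine, rose 5.33-fold (adjusted p = 0.00460), Tfb1m, the methyltransferase paralogue of Tfb2m, rose 3.39-fold (adjusted p = 0.00229), and Fastkd1 2.93-fold (adjusted p = 0.00659). Leaving out a day 0 library reduced the 18, 12 and 11 genes that rose at day 8 to at most 7, 3 and 3, and leaving out 1 library reduced the 16 of day 4 to 1 to 4.

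Among 22 tested regulators of mitochondrial biogenesis, 7 rose and 5 fell by day 8, beside 23.6% and 22% of all genes (median 0.14), and 5 rose and 1 fell with either day 0 library left out. In contrast to Nrf1, the coactivators and the fatty acid oxidation regulator went from near 0 to clear expression. Ppargc1b had 0.0643 and 0.0351 FPKM at day 0 and 9.21 and 3.83 FPKM at day 8 with and without ROS (log2 difference 5.34 ± 0.42, adjusted p = 0.00123). Ppargc1a had 0.132 and 0.0828 FPKM and then 5.09 and 3.19 FPKM (4.33 ± 0.26, adjusted p = 0.000617), and Ppara, which also stands in the beige list, 0.0743 and 0.0631 FPKM and then 9.77 and 2.28 FPKM (4.85 ± 0.68, adjusted p = 0.00548). These folds are on the log2(FPKM + 0.1) scale, which understates the change of genes near 0.

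The transcripts that this machinery produces were followed from the rows on the mitochondrial chromosome. Only mt-Nd4, a subunit of respiratory complex I, carried a symbol of the mtDNA list. It had 823 and 586 FPKM at day 0 with and without ROS, 1720 and 1967 FPKM at day 4, and 2725 and 1571 FPKM at day 8, a 2.98-fold rise by day 8 (adjusted p = 0.0152). It did not pass without a filter on low values (adjusted p = 0.0883) or with either day 0 library left out (0.0643 and 0.0954). Looked at after the tables had been seen, Cox2, a subunit of complex IV, had 3541 and 2937 FPKM at day 0 and 15720 and 9127 FPKM at day 8. The row labelled Cytb, after the mtDNA-encoded subunit of complex III, had 1273 and 982 FPKM and then 2781 and 1755 FPKM. It spans bases 12406 to 15288, and whether it counts only that gene was not tested. All 3 rows were above day 0 in the 4 later libraries of the time course, and highest in the day 8 library with ROS. The day 8 level over day 0 was 3.84-fold for Cox2 and 2.01-fold for the Cytb row in the means.

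**Figure D4:**
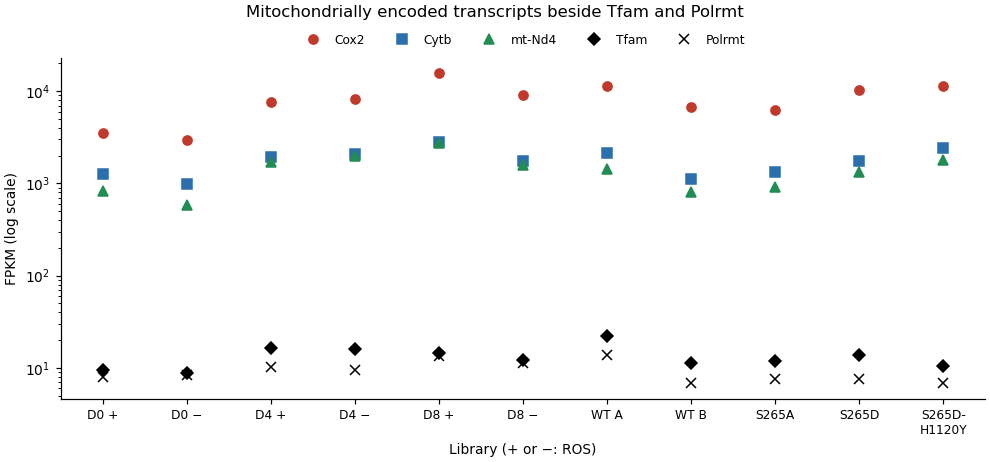
FPKM (y axis, log scale) of the rows labelled Cox2, Cytb and mt-Nd4, encoded by mtDNA, and of Tfam and Polrmt in each of the 11 libraries (x axis). The mtDNA transcripts are higher at day 4 and day 8 than at day 0, with Cox2 going from 2937 and 3541 to 15720 FPKM, and are spread over the transduced libraries.

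The effect of ROS was asked at day 8 and day 4, where each condition has 1 library and the spread comes from the 2 day 0 libraries. At day 8 Mfn2, Opa1, Tfam, Tfb2m, Polg and Polrmt were all higher with ROS, by 1.17-fold to 1.49-fold, while Fis1 and Dnm1l were lower, both 0.77-fold. In limma none of these passed an adjusted p of 0.05, and 0% of the 16400 genes did (5011 had an unadjusted p under 0.05). Mfn2 came nearest, with 71.7 against 48.2 FPKM (log2 difference 0.57 ± 0.10 SE, adjusted p = 0.137), followed by Opa1 with 20.8 against 16.1 FPKM (0.37 ± 0.10, adjusted p = 0.190) and Fis1 with 73.3 against 95.3 FPKM (-0.38 ± 0.11, adjusted p = 0.199). For Dnm1l the day 0 libraries, which the labels also divide by ROS, differed by more (1.49-fold) than those of day 8. With a cutoff of 1.3-fold, chosen after the values were seen, Mfn2 and Tfb2m were higher and Dnm1l lower with ROS at day 8, against 12.1% of 17075 genes higher and 34.4% lower. The 2 day 8 libraries differed in markers as well. Preadipocyte markers summed to 139 FPKM with ROS and 571 FPKM without, against 554 and 622 FPKM at day 0, and all 6 were lower with ROS. Adipocyte markers summed to 34641 and 9703 FPKM, most of it Fabp4. Of these, 6 of the 8 were higher with ROS, while Pparg (140 against 231 FPKM) and Lep were lower. The part of these markers in the ROS differences was not tested.

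All genes together were shifted towards lower values with ROS at day 8 (median log2 difference -0.20), so against the median gene the 6 higher members stood further up and Fis1 and Dnm1l less far down. Scaling by median-of-ratios left every sign of the 10 except that of Nrf1, which was 10.0 FPKM with ROS and 10.1 FPKM without. At day 4 no member differed by 1.3-fold between the conditions, against 7.19% of genes higher and 16.3% lower, and the difference of the ROS effects of day 8 and day 4 did not pass for any member in limma (largest for Tfb2m, 0.54 on the log2 scale, adjusted p = 0.340, 0 of 16400 genes called).

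The partner genes showed where ROS differences at day 8 were larger, though none passed. Slc25a33 was 2.50-fold higher with ROS (adjusted p = 0.0972), Pink1, the kinase upstream of parkin, 1.85-fold (59.7 against 32.2 FPKM, adjusted p = 0.115), and the cristae organising subunits Chchd3 and Chchd6 1.71-fold and 1.63-fold (adjusted p = 0.0994 and 0.104). Sucla2, another succinyl-CoA ligase subunit, was 1.78-fold higher (adjusted p = 0.160), and the nuclease Exog was lower at 2.99 against 4.84 FPKM (adjusted p = 0.138). Hsd17b10 was 1.85-fold higher (adjusted p = 0.124), Mterfd2 1.51-fold higher (adjusted p = 0.172) and Pnpt1, the mitochondrial polynucleotide phosphorylase, lower at 14.2 against 23.9 FPKM (adjusted p = 0.209). Among the regulators Ppara was 4.14-fold higher (adjusted p = 0.0972), Ppargc1b 2.37-fold (adjusted p = 0.133) and the deacetylase Sirt3 1.67-fold (adjusted p = 0.121), and mt-Nd4 was 1.73-fold higher (adjusted p = 0.296).

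In the transduced cells, which ask whether the phosphorylated serine and the catalytic domain of JMJD1A matter, the 2 wild-type libraries differed from each other in most of these genes. WT A exceeded WT B by at least 1.3-fold in 7 of the 10 genes (Mfn2, Opa1, Dnm1l, Tfam, Tfb2m, Polg and Polrmt) and was lower in 1, Nrf1, against 25.7% of all genes higher and 33% lower. Polrmt had 13.7 FPKM in WT A, 6.82 in WT B, 7.59 in S265A, 7.59 in S265D and 6.92 in S265D-H1120Y. Tfam had 22.2 FPKM in WT A, 11.3 in WT B, 11.7 in S265A, 13.7 in S265D and 10.6 in S265D-H1120Y. In both, WT A stood alone and the other 4 libraries lay close together.

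Opa1 and Dnm1l were also highest in WT A, while the order of the other 4 libraries differed between genes. Opa1 had 37.1 FPKM in WT A, its highest of all 11 libraries, 21.1 in WT B, 22.0 in S265A, 26.2 in S265D and 22.9 in S265D-H1120Y. Dnm1l had 33.9 FPKM in WT A, also its highest, 19.7 in WT B, 18.6 in S265A, 24.4 in S265D and 20.5 in S265D-H1120Y. Mfn2 had 51.3 FPKM in WT A, 38.1 in WT B, 34.5 in S265A, 34.4 in S265D and 31.7 in S265D-H1120Y, so that WT B lay nearer to the mutants than to WT A. Opa1 and Dnm1l were higher together in WT A, and their ratio was 1.09 there against 1.07 to 1.19 in the other 4.

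Nrf1 went the other way, with 6.24 FPKM in WT A, its lowest of all 11 libraries, 10.5 in WT B, 10.5 in S265A, 8.01 in S265D and 13.4 in S265D-H1120Y. Fis1 was at 69.8 FPKM in WT A and 55.6 to 68.8 FPKM in the others, and Mfn1 at 15.9 FPKM in WT A and 17.1 to 21.2 FPKM in the others. Tfb2m had 11.1 FPKM in WT A and 6.60 to 7.66 FPKM in the others, and Polg 13.7 FPKM in WT A and 8.58 to 10.8 FPKM in the others. WT A therefore stood outside the range of the other 4 libraries in all 10 genes, in Fis1 by only 69.8 against 68.8 FPKM. How many of all genes did so was not counted.

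Against the mean of both WT libraries no gene passed in limma for S265A, S265D, or S265D-H1120Y against S265D (0% of 16402 genes, adjusted p of 1.00 for all 10 members, and 107, 99 and 187 genes with an unadjusted p under 0.05). The differences depended on the WT library. S265A was within 1.3-fold of WT B in all 10 genes (38.3% of all genes were past it), but against WT A it was lower in 6 and higher in 2 of the 10 (22.1% and 27% of all genes). S265D was lower than WT A in 7 of the 10 (21.5% of all genes lower, 28.9% higher) and differed from WT B only in Nrf1, at 0.76-fold (30.1% of all genes were past the cutoff). In S265D-H1120Y against S265D only Nrf1 was past 1.3-fold, at 1.68-fold (log2 difference 0.74 ± 0.62 SE, adjusted p = 1.00), against 40.2% of all genes past the cutoff.

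In limma no gene of the partner lists was called in these comparisons. The 24 genes for mtDNA transcription and RNA handling had a median log2 difference of -0.50 in S265A against WT A alone and 0.07 against WT B alone, and in S265D of -0.23 and 0.25. The 28 fusion, fission and cristae partners had medians of -0.20 and 0.09 in S265A and -0.24 and 0.20 in S265D. The sign of these medians depended on the WT library. For the 23 regulators of mitochondrial biogenesis it did not in S265A (0.05 and 0.06) and did in S265D (-0.06 and 0.02), and for the 26 genes of mtDNA replication it did in both (-0.10 and 0.10, and -0.11 and 0.11), while the median of all genes was 0.02 for S265A over WT A and 0.00 over WT B.

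Other measures moved with WT A too. Its beige markers summed to 290 FPKM against 32.8 FPKM in WT B, and its preadipocyte markers to 146 against 569 FPKM. Acta1, the muscle actin, was at 1.40 FPKM in WT A and 19.3 in WT B. The adipocyte markers of WT A summed to 14908 against 29340 FPKM, most of it Fabp4 (12393 against 26902 FPKM). Lpl and Pparg were also lower in WT A. Cebpa (150 against 83.3 FPKM), Plin1 (293 against 158), Adipoq (978 against 738), Cd36 (598 against 513) and Lep (under 1 FPKM) were higher. Kdm3a was at 20.4 FPKM in WT A and 17.9 in WT B. The part of these in the differences of the 10 genes was not tested. The mtDNA rows were not uniform in WT A: mt-Nd4 was at 1437 FPKM in WT A, 798 in WT B, 906 in S265A, 1341 in S265D and 1781 in S265D-H1120Y, and Cox2 at 11380, 6709, 6206, 10271 and 11274 FPKM in the same order. The row AK018753 was highest in WT A, at 1432, 693, 683, 1049 and 921 FPKM in this order. The Cytb row was highest in S265D-H1120Y, at 2410 FPKM against 2150 in WT A.

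**Figure D5:**
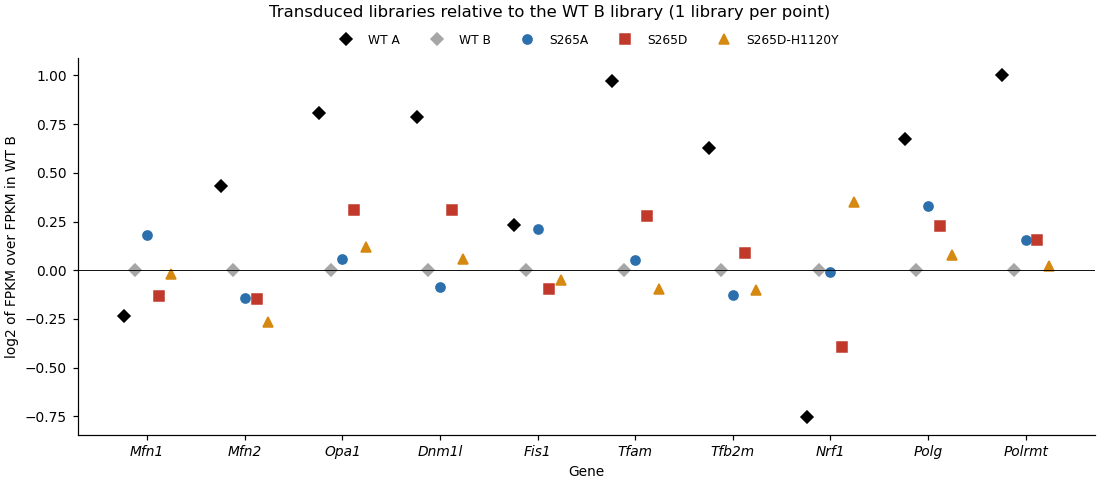
Log2 ratio of FPKM to that of WT B (y axis) for the 10 genes (x axis) in the 5 transduced libraries, 1 library per point. WT A (black) is the top point in 8 genes and the bottom one in Mfn1 and Nrf1, while the 3 mutants lie between 0.76-fold and 1.28-fold of WT B.

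The genes with the profile most like each member over the 11 libraries were found by Pearson's r of log2(FPKM + 0.1) among 10585 genes with at least 1 FPKM in every library. These values are descriptions, because the libraries fall into days and an experiment, and every gene that follows those steps scores high. Tfam was most like Aifm1, a mitochondrial flavoprotein (r = 0.979), and the mitochondrial tRNA synthetases Iars2 (0.972) and Hars2 (0.969), and Iars2 also headed the list of Tfb2m (0.965), before Napor-1 (0.962) and Tmem70, an assembly factor of ATP synthase (0.957). Mfn2 was most like the ATP synthase subunits Atp5k (0.971) and Atp5j2 (0.966), and then AK164124 (0.961). The genes like Opa1 included 4930402H24Rik (0.979) and Tmem161b (0.977).

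Polg was most like 1700040I03Rik (0.976), Pbk (0.968) and the mitochondrial seryl-tRNA synthetase Sars2 (0.966), and Polrmt like 2310011J03Rik (0.982), the folate carrier Slc19a1 (0.976) and Eif4ebp2 (0.969). Dnm1l headed its list with Drp1 (0.980), a row at the same locus that shares its bases, before the phosphoinositide phosphatase Sacm1l (0.968) and utrophin, Utrn (0.947). Fis1 was most like SMN (0.993), the actin nucleation subunit Arpc4 (0.992) and Tmed1 (0.987). Likeness was lowest for Mfn1, with Mtr, the methionine synthase (0.912), and Ttyh2 (0.905), and for Nrf1, with Mtfr1, a regulator of mitochondrial fission (0.922), Stx5a (0.899) and Dstyk (0.891).

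Each symbol has 2 to 7 annotated transcripts whose shared bases are counted for each of them. The ratio of day 8 over day 0 ranged from 1.86 to 1.93 over the 4 transcripts of Mfn2, from 1.46 to 1.47 over the 3 of Tfam and from 0.69 to 0.80 over the 6 of Dnm1l. It was less uniform for Nrf1, from 0.87 to 1.02 over 7, and for Polg, from 1.13 in a fragment of 255 bases to 1.47.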

How the data were processed

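The authors prepared TruSeq libraries from total RNA, aligned the reads with BWA (version not given in the sources used here) to mm9 and UCSC transcripts, followed by a local realignment, and computed strand-specific FPKM per transcript. The authors deposited FPKM, its log10 and its log2, and a coverage signal in mapped bases; replicates were not pooled. The sense row marked as representative was used for each symbol (110838 rows per library).

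Differences were tested with limma 3.58.1 (R 4.3.3) on log2(FPKM + 0.1) over genes with at least 0.1 FPKM in a library of the fit, with Benjamini-Hochberg adjustment and a threshold of 0.05. Day comparisons used the 6 libraries without transduction by day alone (3 residual degrees of freedom), and ROS and construct comparisons took the spread from the day 0 pair and the WT pair (1 each). Folds in the text are 2 to the power of the log2 difference where a test is given, and otherwise ratios of FPKM. The script was tested on simulated data. Tables and figures used Python 3.11.15, pandas 2.3.3, numpy 2.4.6 and matplotlib 3.10.9.

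All 10 members were named. From each list the 3 genes with the largest difference past the threshold at day 8, the 3 with the largest ROS difference at day 8, and for each member the 3 most similar genes were named, of which 2 are not reported here. The members and lists were chosen with earlier results of these data known, and the promoter letters after the windows were seen. The labels and the paper differ on the removal of ROS before day 8, so the groups say only whether ROS was given.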

Additional observations from a re-analysis of the deposited data

How the results depend on the processing

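The directions of the 10 genes held in 449 of 459 alternatives for the 3 day comparisons, ROS at day 8 and Nrf1 in S265D-H1120Y, and the exceptions, none past the threshold, were Nrf1 with a library left out (-0.0668 to 0.121 at day 8 and -0.10 to 0.0882 at day 4), between day 4 and day 8 Mfn2, Fis1 and Nrf1 with a library left out (-0.0100 to 0.560, -0.109 to 0.269 and -0.0184 to 0.0847) and Polg with the highest-mean transcript (-0.113), and for ROS at day 8 Mfn1 with the highest-mean transcript (-0.12) and Nrf1 with that transcript (0.0112) or median-of-ratios scaling (0.19). Of the partner genes Park2 turned at day 8 with the highest-mean transcript (-2.02). The cause was not tested. Members past the threshold at day 8 numbered 5, but 1 without a filter on low values (Mfn1, lower), 4 with the highest-mean transcript (Polg lost), 1 with median-of-ratios scaling (Opa1), 1 with all 11 samples in one fit (Mfn2), 2 with ROS as an added term (Mfn2 and Opa1) and 0 to 7 with a library left out. At day 4 they numbered 3, as they did without the filter (Mfn1 in place of Tfb2m), but 1 with all 11 samples in one fit (Opa1) and 0 with a library left out. For ROS at day 8 they numbered 0, or 1 without the filter (Polg).

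Over all genes the calls at day 8 fell from 7473 to 4208 without the filter and ranged from 2147 to 9150 with a library left out. At day 4 they fell from 5976 to 3021 without the filter and 3803 with all samples in one fit, and to 1407 to 2267 with a library left out. Between day 4 and day 8 the 18 calls became 131 (pseudocount 1), 33 (pseudocount 0.01), 33 (no filter), 45 (minimum FPKM of 1), 10 (highest-mean transcript), 37 (median-of-ratios), 2 (all samples) and 0 (ROS term), or 0 to 595 with a library left out. For ROS the 0 calls became 2042 (no filter) and 895 (minimum FPKM of 1) at day 8 and 1434 (no filter) at day 4. With a cutoff of 1.5-fold, added after seeing the data, WT A exceeded WT B in 6 members and was lower in 1. S265A was then lower than WT A in 5 members and higher in 1, and S265D was lower than WT A in 2. With ROS at day 8, 0 members were higher and 0 lower at this cutoff. The shares of all genes at 1.5-fold were not counted. The fit with ROS as an added term pairs the days within each ROS series. No paired analysis was possible for the transduced libraries because the labels number only the WT samples. Whether depth limited any call was not tested, and all members had at least 5.30 FPKM.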
